A study of Homo sapiens with 4 samples.

Results

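The genes described here encode 10 proteins of the neuronal cytoskeleton and its motors: the microtubule-associated proteins MAPT (tau), MAP2, MAP1B and DCX (doublecortin), the neuronal beta tubulin TUBB3, the tubulin-binding protein STMN2, the intermediate filament proteins PRPH (peripherin), NEFL and NEFM (neurofilament light and medium chains), and the kinesin heavy chain KIF5C. They were taken by name, and all 10 matched an identifier among the 60617 gene entries of the count table. Of these, 6 passed the filter on low counts and were tested together with 17374 genes in all. A gene was called higher or lower when its adjusted p was under 0.05 and its fold change above 1.5, the limits that the series' design text names. PRPH and KIF5C were called higher in CBL0137, from a few reads per library in DMSO. MAPT was called lower, from a level among the highest of the members. MAP2, MAP1B and TUBB3 were not called, and STMN2, NEFL, NEFM and DCX had at most 2 reads in any library. For comparison, 18.2% of all tested genes were called higher and 15.1% lower, 33.4% in either direction, and among tested genes with a DMSO mean under 0.5 CPM (read counts scaled to a common library size), as PRPH and KIF5C have, 62.2% were called higher.

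Microtubules are hollow polymers of alpha and beta tubulin, and in axons and dendrites they are bundled and stabilised by tau, MAP2, MAP1B and doublecortin. Stathmins bind free tubulin and favour disassembly, neurofilaments and peripherin set axon calibre and strength, and kinesins of the KIF5 family carry cargo along microtubules away from the cell body. Several of these genes serve as markers of neurons, and Ewing sarcoma, a bone and soft tissue tumour usually driven by a fusion of EWSR1 with an ETS factor, can show some neural features.

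SKNMC, an established Ewing sarcoma line, was given DMSO, the vehicle, or 1 µM CBL0137, a carbazole (curaxin) that binds DNA and holds FACT, a histone chaperone, on chromatin. RNA was taken from both groups after 24 h, and each group has 2 libraries. No genetic change separates the groups, all of the cells belong to 1 line, and the labels do not say that the replicates were separate cultures, so p-values measure the spread between these libraries, which may be technical. In bulk RNA, fewer cells of a kind and less RNA per cell cannot be told apart.

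Reads assigned to genes numbered 19625517 to 21061892 per library. With scaling by library size alone, in place of TMM factors (trimmed mean of M values, which set a typical gene to no change), the median log2 fold change of all tested genes moved up by 0.16, and 23.8% were then called higher and 10.8% lower. With TMM factors, 18.2% of all tested genes were called higher and 15.1% lower, the shares to set beside the marker counts that follow. Of 8 Ewing sarcoma markers tested, 0 were called higher and 4 lower, CD99, CCND1, PRKCB and NR0B1 (2 of the 8 had an unadjusted p under 0.05 for a higher level, and DESeq2 called 0 higher). Of 15 pan-neuronal markers 12 were tested, and 4 were called lower (SYN1, SNAP25, NCAM1 and ELAVL4) and 0 higher, with 0 higher at an unadjusted p under 0.05 and 0 with DESeq2. The summed level of the 15 was 1056 to 1062 CPM in DMSO and 1055 to 1070.3 CPM in CBL0137. Epithelial markers, 4 of 5 tested and all 4 called higher, summed to 51.5 and 52.0 CPM in DMSO and 114.1 and 114.9 CPM in CBL0137, and their part in the results below was not tested.

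MAPT, which encodes tau, a protein that binds along axonal microtubules, lies at GRCh37 chromosome 17, 43971893 to 44105700, plus strand (ENSG00000186868). The DMSO libraries had 237 and 233 CPM of MAPT, and the CBL0137 libraries 132 and 138 CPM. Both treated libraries were below both controls, and the gap was far wider than the spread within a group. The mean went from 235 ± 3.09 to 135 ± 3.68 CPM (SD, n = 2 per group), and the log2 fold change was -0.80 (SE 0.05, edgeR adjusted p = 9.6e-17). In the deposited FPKM (fragments per kilobase of gene, scaled to the depth), the values were 34.1 and 29.2 in DMSO and 15.3 and 15.1 in CBL0137, again without overlap.

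MAPT-AS1 (ENSG00000264589), a long noncoding RNA gene on the minus strand at 43876756 to 43973046, shares 75 exon bases with MAPT and was picked after its values were seen. It had 45 and 50 reads in DMSO and 144 and 145 reads in CBL0137, so it was higher in both treated libraries while MAPT was lower in both. Its log2 fold change was 1.37 (SE 0.21, edgeR adjusted p = 5.2e-07). Whether the counting used strand is not given in the sources, and without it HTSeq would set reads of the shared bases aside from both counts. Other genes overlap MAPT with 0 shared exon bases. On its own strand, MAPT-IT1 had 109 and 95 reads in DMSO and 146 and 155 in CBL0137. STH, also on that strand, had 19 and 24 against 10 and 15. An unnamed minus-strand noncoding gene had 8 and 4 against 4 and 10. Whether MAPT-AS1 bears on MAPT was not tested.

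MAP2 encodes the main microtubule-associated protein of dendrites and lies at chromosome 2, 210288771 to 210598871, plus strand (ENSG00000078018). It had 15.5 and 19.4 CPM in DMSO and 13.2 and 10.2 CPM in CBL0137. The groups did not overlap, but the closest libraries, DMSO replicate 1 and CBL0137 replicate 1, lay nearer to each other than the replicates of DMSO did. The log2 fold change of MAP2 was -0.58 (SE 0.13, edgeR adjusted p = 0.00013), a fold of 1.49 that is just under the limit, so it was not called. DESeq2, which called 10.9% of its genes higher and 11% lower, called MAP2 lower, at -0.60 (adjusted p = 0.012). Without DMSO replicate 1 or CBL0137 replicate 1 it was also called, at -0.75 and -0.78, where 13.8% and 13.3% of all genes were called lower. Without DMSO replicate 2 or CBL0137 replicate 2 it was not, at -0.43 and -0.41, where 13.9% and 14.6% were. With no fold limit, 30.8% of all genes were called higher and 30.9% lower, and MAP2 was then called beside MAPT; with a fold above 2, 11.4% were higher and 7.01% lower, and neither was called. The FPKM of MAP2 overlapped between groups, with 1.02 and 1.75 in DMSO and 0.610 and 1.38 in CBL0137.

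MAP1B encodes a microtubule-associated protein of growing axons and lies at chromosome 5, 71403061 to 71505392, plus strand (ENSG00000131711). Its level was 217 and 211 CPM in DMSO and 203 and 202 CPM in CBL0137. All 4 values lay close together. The log2 fold change was -0.08 (SE 0.05, edgeR adjusted p = 0.19), and it was 0.08 with library size alone and 0.02 in FPKM, so its sign depended on the scaling. With counts per kilobase of exon, MAP1B at 17.0 ± 0.353 CPM per kilobase stood above MAPT at 12.8 ± 0.168 in DMSO (SD, n = 2). In FPKM the order of these levels was the opposite, MAPT at 31.7 ± 3.49 and MAP1B at 12 ± 0.121. After CBL0137, MAPT stood at 7.33 ± 0.200 and MAP1B at 16.1 ± 0.0500 CPM per kilobase.

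DCX, the doublecortin gene of migrating neurons (chromosome X, 110537007 to 110655657, minus strand, ENSG00000077279), had 0 and 1 read in DMSO and 2 and 1 reads in CBL0137. These counts are at or under 3 reads, the floor that a count of 0 allows, which equals 0.159 and 0.161 CPM for DMSO and 0.137 and 0.135 CPM for CBL0137. DCX was therefore not measurable at this depth and was not tested.

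**Figure D1:**
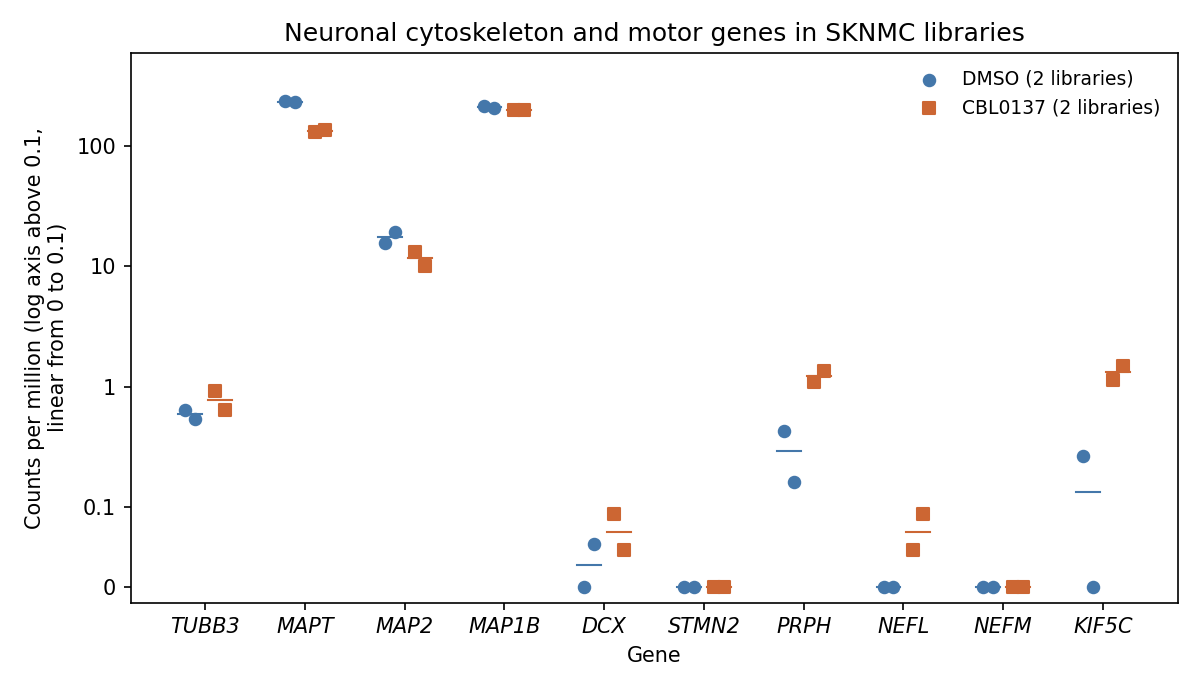
CPM of the 10 members in each library, on an axis that is linear from 0 to 0.1 and logarithmic above, with circles for the 2 DMSO libraries, squares for the 2 CBL0137 libraries and short lines at the group means. MAPT has a mean of 235 in DMSO and 135 in CBL0137, the squares of PRPH and KIF5C sit above their circles, and STMN2 and NEFM are at 0 throughout.

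TUBB3 encodes the class III beta tubulin, a standard marker of neurons, and lies at chromosome 16, 89987800 to 90005169, plus strand (ENSG00000258947). It had 12 and 10 reads in DMSO and 20 and 14 reads in CBL0137, or 0.634 and 0.537 CPM against 0.910 and 0.632 CPM. The lower treated library fell just under the higher control, so the groups overlapped. The log2 fold change of TUBB3 was 0.39 (SE 0.50, edgeR adjusted p = 0.52).

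The 2 deposited scales disagreed on the level of TUBB3. Its FPKM was 9.50 and 10.7 in DMSO and 13.5 and 11.6 in CBL0137, a level close to that of MAP1B in the same unit. In DMSO, TUBB3 was the third of the members in FPKM, at 10.1 ± 0.871, and the fifth in counts per kilobase, at 0.0789 ± 0.00926 CPM (SD, n = 2). The ratio of mean FPKM to CPM per kilobase was 124 for TUBB3, against a median of 0.979 over 17252 genes (quartiles 0.702 and 1.56), and it was higher than in 99.8% of tested genes. An unnamed protein-coding entry on the same strand (ENSG00000198211, 89985573 to 90002500) shares 1584 exon bases with TUBB3. That entry had 0 reads in all 4 libraries, yet its FPKM was 6.10 and 6.74 in DMSO and 8.36 and 7.59 in CBL0137. HTSeq sets aside reads that fall in more than 1 gene, 8.75% to 9.34% of the reads counted here, and how many of them came from TUBB3 was not tested. The count of TUBB3 is thus uncertain as a level. In FPKM its values did not overlap between groups, but limma gave a log2(FPKM + 1) difference of 0.29 (adjusted p = 0.10), and 0.30 (adjusted p = 0.07) with the overlapping entry added in, so it was not called on either scale.

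**Figure D2:**
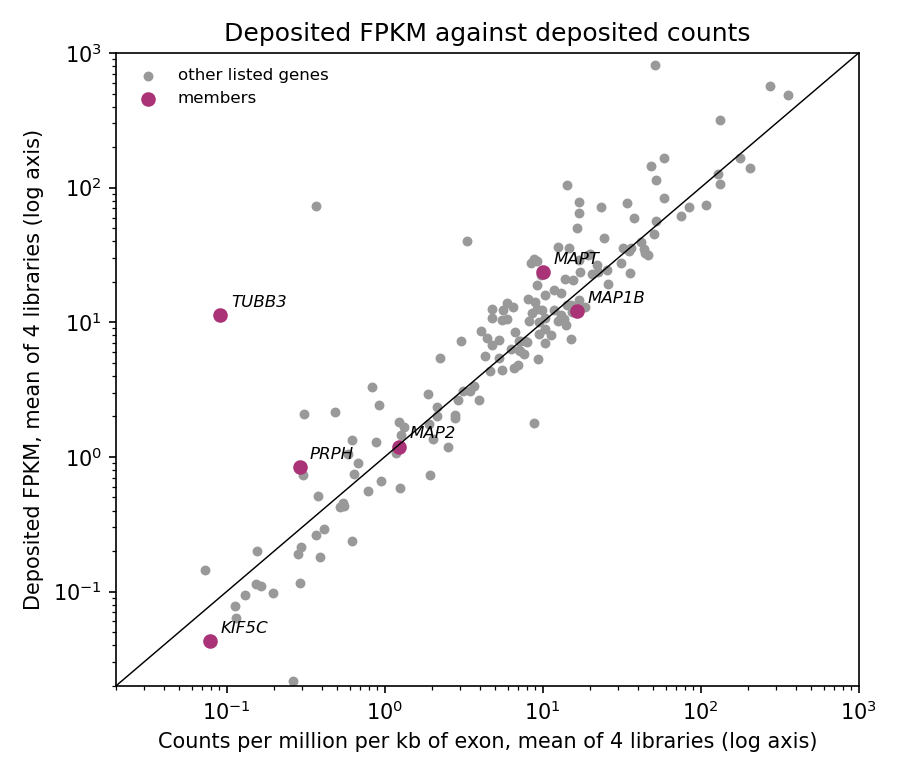
Mean deposited FPKM over the 4 libraries against mean CPM per kilobase of exon, on log axes, with the tested members in purple and the other tested genes of the lists in grey. The line marks equal values, and TUBB3, whose FPKM is 124 times its CPM per kilobase, lies far above it.

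Of the other beta tubulins, TUBB, the most abundant, was lower, at 1369.8 and 1364 CPM in DMSO and 844 and 868 CPM in CBL0137 (log2 fold change -0.68, SE 0.05, edgeR adjusted p = 1e-14). With library size alone its value of -0.52 was under the fold limit. TUBB6 was lower as well, from 188 ± 0.265 to 111 ± 0.384 CPM. TUBB4B was higher, at 194 and 187 CPM in DMSO and 337 and 325 CPM in CBL0137, and TUBB4A went from 32.3 ± 0.00864 to 57.2 ± 3.71 CPM. TUBB2A and TUBB2B, a pair of near-identical genes whose reads could be split between them, had log2 fold changes of 1.02 and 0.65. Both were called higher, but TUBB2B was not without DMSO replicate 2 (0.54) or CBL0137 replicate 1 (0.58). TUBB1, at 0.66 (SE 0.57, edgeR adjusted p = 0.32), was not called.

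In shares of all beta tubulin reads per kilobase of exon, TUBB made up 67.8 ± 0.327% in DMSO and 48.6 ± 1.19% in CBL0137 (SD, n = 2). TUBB4B made up 18.9 ± 0.350% and 37.6 ± 0.786%. From FPKM the shares differed in size but moved the same way. TUBB was then 77.1 ± 0.189% in DMSO and 60.9 ± 0.975% in CBL0137, and TUBB4B 9.93 ± 0.314% and 22.4 ± 0.584%. TUBB3, by contrast, was 0.016% in DMSO and 0.024% in CBL0137 from counts, and 1.14 ± 0.0922% and 1.72 ± 0.195% from FPKM. On either scale it was a small part of the beta tubulin message. With 2 libraries against 2, an exact two-sided permutation test cannot give a p below 0.33, so the shares carry no p.

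**Figure D3:**
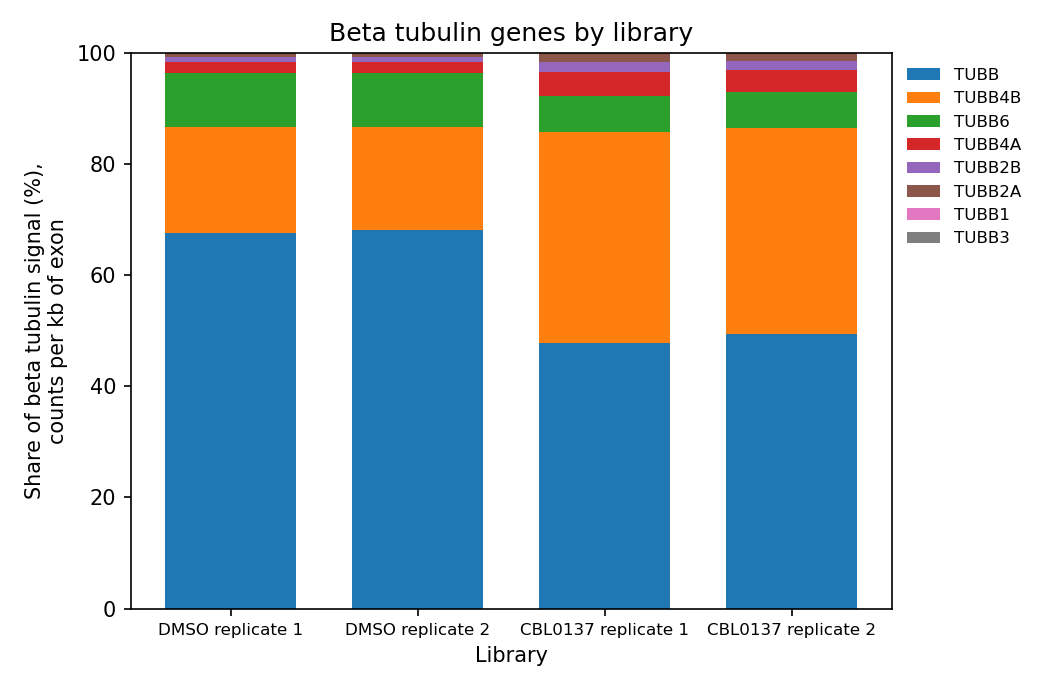
Share of each beta tubulin gene in the summed beta tubulin reads per kilobase of exon, in percent, for each of the 4 libraries as a stacked bar from 0. TUBB takes 67.6% and 68.1% of the DMSO bars and 47.7% and 49.4% of the CBL0137 bars, TUBB4B a mean of 37.6% after treatment, and TUBB3 is too small to see.

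STMN2, a neuron-specific stathmin that regulates microtubule turnover in growth cones (ENSG00000104435), had 0 reads in all 4 libraries and is listed at an FPKM of 0. A count of 0 allows up to 0.161 CPM in the least deep library. Its paralogs were present: STMN1, the widely expressed stathmin, had 929 and 913 CPM in DMSO and 723 and 740 CPM in CBL0137 (log2 fold change -0.33, under the fold limit). STMN3 had a value of -0.35. STMN4 had -0.09 (SE 0.40), with overlapping groups. Of these 3 tested stathmins, edgeR called 0, with 2 at an unadjusted p under 0.05, and DESeq2 also called 0.

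PRPH encodes peripherin, an intermediate filament protein of peripheral neurons, and lies at chromosome 12, 49688930 to 49692469, plus strand (ENSG00000135406). KIF5C encodes the neuron-enriched heavy chain of kinesin-1 and lies at chromosome 2, 149632819 to 149883273, plus strand (ENSG00000168280). The 250 bases before the most upstream start of each are shown because these members were both called higher, and those of MAP1B because it had high reads in both groups. They come from RefSeq on GRCh38.p14, whose coordinates differ from the GRCh37 ones above. Capitals mark the letters TATAAA, as in the TATA box of core promoters, or TGACGTCA, as in the cyclic AMP response element. They are marked wherever they lie in a window, and the match in MAP1B is far from the start.
PRPH, chr12:49294897-49295146, plus strand: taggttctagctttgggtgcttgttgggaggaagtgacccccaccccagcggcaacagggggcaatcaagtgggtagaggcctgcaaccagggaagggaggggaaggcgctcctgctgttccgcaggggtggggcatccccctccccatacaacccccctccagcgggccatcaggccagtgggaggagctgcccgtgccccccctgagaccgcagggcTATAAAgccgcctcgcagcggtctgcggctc
KIF5C, chr2:148874977-148875226, plus strand: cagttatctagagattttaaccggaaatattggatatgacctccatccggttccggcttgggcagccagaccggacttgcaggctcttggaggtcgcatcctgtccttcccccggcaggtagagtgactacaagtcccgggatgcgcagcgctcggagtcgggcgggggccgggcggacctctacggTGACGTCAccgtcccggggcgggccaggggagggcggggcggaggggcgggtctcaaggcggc
MAP1B, chr5:72107225-72107474, plus strand: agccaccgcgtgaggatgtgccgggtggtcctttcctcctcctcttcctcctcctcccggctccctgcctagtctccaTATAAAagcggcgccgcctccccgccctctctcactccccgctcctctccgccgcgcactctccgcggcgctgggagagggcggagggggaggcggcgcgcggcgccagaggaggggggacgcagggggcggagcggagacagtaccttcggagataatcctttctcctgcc

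The windows of PRPH and MAP1B hold TATAAA, and that of KIF5C holds TGACGTCA once and GGGCGG, a GC box, 6 times, counted on both strands. The MAP1B window holds GGGCGG 3 times and the PRPH window 0 times. Of all 35116 windows of this length in the table, 10.7% hold TATAAA, 1.65% TGACGTCA and 42.6% GGGCGG. Windows of 6 members were searched, 13 in all, and MAPT, STMN2, NEFL and NEFM were not used here. Among those not printed, the most upstream window of DCX, a gene at or under the floor, also holds TATAAA. A TUBB3 window holds GGGCGG 3 times, and the other MAP1B window holds TATAAA and, 2 times, GGGCGG. The remaining windows hold none of these. These matches describe the letters in these windows only. The GC content was 66.8% for PRPH, 66.0% for KIF5C and 70.0% for MAP1B, against a median of 58.0% over all windows.

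PRPH reads numbered 8 and 3 in DMSO and 24 and 30 in CBL0137, or 0.423 and 0.161 CPM against 1.09 and 1.35 CPM. Both treated libraries were above both controls. Its mean was 0.292 ± 0.185 CPM in DMSO and 1.22 ± 0.186 CPM in CBL0137 (SD, n = 2). The fitted log2 change was 2.04 (SE 0.54, edgeR adjusted p = 0.0011). The size rested on which control was kept: the value was 2.86 without DMSO replicate 1 and 1.50 without DMSO replicate 2. In FPKM, PRPH was 0.293 and 0.0538 in DMSO and 1.23 and 1.77 in CBL0137, also without overlap.

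PRPH also shares sequence with a gene on the other strand. TROAP-AS1 shares 1872 of the 2618 exon bases of PRPH. It had 7 and 4 reads in DMSO and 12 and 23 reads in CBL0137, and if strand was not used, reads of the shared bases would be set aside from both counts. The ratio of mean FPKM to CPM per kilobase was 2.89 for PRPH, higher than in 90.8% of tested genes, and its cause was not tested. PRPH and TROAP-AS1 were both called higher, TROAP-AS1 at 1.42 (SE 0.59, edgeR adjusted p = 0.035). Like PRPH, TROAP-AS1 passed the filter only through its CBL0137 libraries and could not have been tested without a higher value there. Its DMSO mean was under 0.5 CPM, where 62.2% of tested genes were called higher.

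KIF5C had 5 and 0 reads in DMSO and 25 and 33 reads in CBL0137, or 0.264 and 0 CPM against 1.14 and 1.49 CPM. Every treated library again lay above every control. The mean was 0.132 ± 0.187 CPM in DMSO and 1.31 ± 0.249 CPM in CBL0137, and the log2 fold change was 3.25 (SE 0.66, edgeR adjusted p = 4.1e-05). Without DMSO replicate 2, the library at 0, it was 2.27. Without DMSO replicate 1 it was 7.78, with the only control left at 0, and that value depends on the small count that edgeR adds. The log2(FPKM + 1) difference was 0.09 (limma adjusted p = 0.13), a scale on which values this low barely move and 10.7% of all genes were called higher and 7.85% lower. With 0.1 added in place of 1, it was 0.71 (limma adjusted p = 0.038), where 16.9% were called higher and 10.5% lower.

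PRPH and KIF5C passed the filter only through their CBL0137 libraries, so they could not have been tested without a higher value there. Of 1202 tested genes with a DMSO mean under 0.5 CPM, 62.2% were called higher and 0 lower. Against that share, a higher call at this level is common. Even after treatment both genes were far less abundant than MAPT or MAP1B, and KIF5C was 0.316 ± 0.0676% of the KIF5 heavy chain reads per kilobase, against 0.0300 ± 0.0424% in DMSO (SD, n = 2).

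The other KIF5 heavy chains were more abundant. KIF5B, the ubiquitous one, made up 98.5% of KIF5 reads per kilobase in DMSO and 97.4% in CBL0137, at 283 ± 10.8 and 258 ± 7.47 CPM. KIF5A, a neuronal heavy chain, had 9.41 and 8.27 CPM in DMSO and 11.9 and 13.9 CPM in CBL0137 (log2 fold change 0.54, SE 0.14, edgeR adjusted p = 0.00069). That is under the fold limit, although library size alone gave 0.70 and a call.

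The neurofilament chains were at or under the floor. NEFM (ENSG00000104722) had 0 reads in all 4 libraries. NEFL (ENSG00000277586), which encodes the light chain on which neurofilaments assemble, had 0 reads in both DMSO libraries and 1 and 2 reads in the CBL0137 libraries, which is too few for a fold. Their partners NEFH and INA were measurable: NEFH, the heavy chain, had 2.77 ± 0.408 and 3.17 ± 0.0174 CPM (log2 fold change 0.19, edgeR adjusted p = 0.52). INA, alpha-internexin, was higher, at 1.69 and 2.69 CPM in DMSO and 4.51 and 3.43 CPM in CBL0137 (log2 fold change 0.86, SE 0.26, edgeR adjusted p = 0.0045). The call was lost with DESeq2 and without DMSO replicate 1 (0.54) or CBL0137 replicate 1 (0.65). PRPH made up 7.86 ± 5.98% of the neuronal intermediate filament reads per kilobase in DMSO and 18.5 ± 3.95% in CBL0137.

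**Figure D4:**
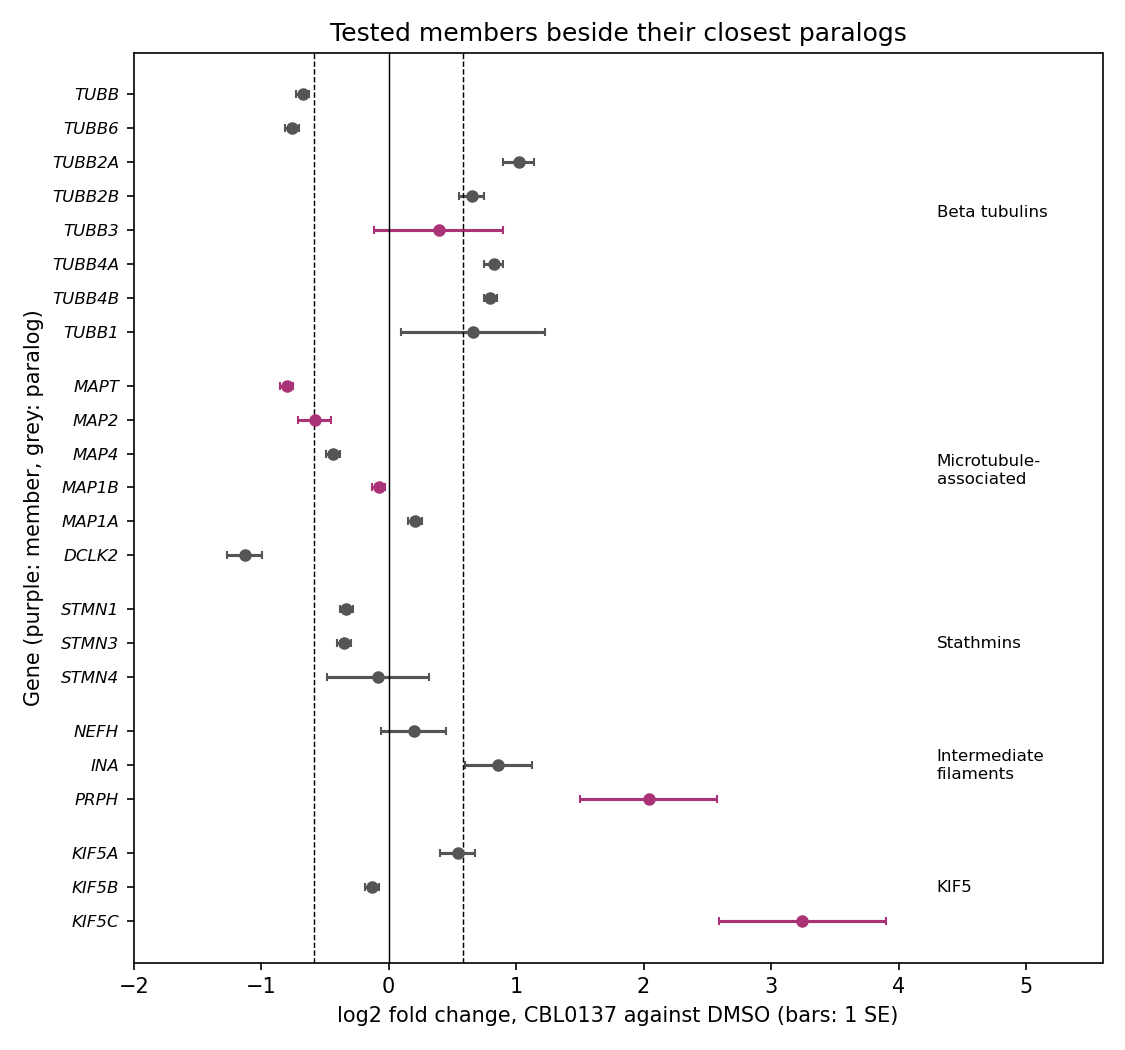
Log2 fold change of CBL0137 against DMSO for the tested members (purple) and their closest paralogs (grey), with bars of 1 SE and dashed lines at a fold of 1.5. MAPT at -0.80 and DCLK2 at -1.13 lie on the lower side, PRPH at 2.04 and KIF5C at 3.25 lie farthest on the higher side, and MAP1B at -0.08 lies near 0.

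Among other microtubule-associated proteins, 12 of 14 were tested, and 1 was called higher and 3 lower, with a median log2 fold change of 0.20 against 0.01 over all tested genes. DCLK2, a doublecortin-like kinase, was lower, from 15.2 ± 0.625 to 6.94 ± 0.359 CPM. MAP7D3 and MAP9, which bind and stabilise microtubules, were also lower, at -0.96 and -0.92. DCLK3, at 1.77, was the only one called higher. With library size alone 5 were, where 23.8% of all tested genes were called higher. MAP1A, the paralog of MAP1B in mature neurons, had 0.21 (SE 0.05), and MAP4, the general microtubule-associated protein of dividing cells, had -0.44 (SE 0.05), both under the fold limit.

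Of 13 tubulins tested besides TUBB3, 6 were called higher (46.2%) and 3 lower (23.1%), with a median of 0.64. Among all tested genes, 18.2% were called higher and 15.1% lower. TUBA4A, an alpha tubulin, was higher, from 14.7 ± 0.620 to 48.3 ± 2.0 CPM. TUBG1, the gamma tubulin from which microtubules start, was called lower together with TUBB and TUBB6. With library size alone, 1 of the 3 lower calls was left, where 10.8% of all tested genes were called lower.

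Of 5 other intermediate filament genes tested, 3 were called higher (NES, INA and SYNM) and 0 lower, with 0 lower at an unadjusted p under 0.05 and 0 with DESeq2. DESeq2 called 2 higher. Among all tested genes, 18.2% were called higher and 15.1% lower. The median of the 5 filament genes was 0.86. SYNM, synemin, was higher, from 1.63 ± 0.0562 to 8.35 ± 1.01 CPM. NES, nestin, a marker of neural progenitors, had 0.159 and 0 CPM in DMSO and 1.09 and 1.26 CPM in CBL0137, near the floor in DMSO like KIF5C. NES passed the filter only through its CBL0137 libraries, and 62.2% of tested genes with a DMSO mean under 0.5 CPM were called higher. VIM, vimentin, had 0.37 (SE 0.06), under the fold limit.

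Of 21 kinesins and light chains other than KIF5C, 3 were called higher (14.3%) and 2 lower (9.52%), beside 18.2% and 15.1% of all tested genes. Their median was -0.09. KLC4 and KLC3, light chains that link kinesin-1 to cargo, were higher at 0.98 and 2.58. KLC3 rested on few reads, 14 and 9 in DMSO and 86 and 77 in CBL0137. KIF21B, a kinesin of dendrites and axons, was lower at -0.84. Of 21 dynein and dynactin genes, which drive transport toward the cell body, 2 were called higher (9.52%) and 4 lower (19.0%), with a median of -0.17. DYNC1LI2 and DCTN3 were higher at 0.79 and 0.77, and DYNLT3 was lower, from 28.3 ± 0.0591 to 11.1 ± 1.77 CPM. With library size alone, 5 kinesin genes were called higher and 2 dynein and dynactin genes lower. In that setting 23.8% of all tested genes were called higher and 10.8% lower.

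Over all lists of cytoskeleton, motor, end-binding, kinase and axon growth genes together, without the members, 18 genes of 115 tested were called higher and 18 lower, 31.3% in all against the 33.4% of all tested genes. With library size alone, 26 were called higher and 11 lower, where 23.8% and 10.8% of all tested genes were.

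**Figure D5:**
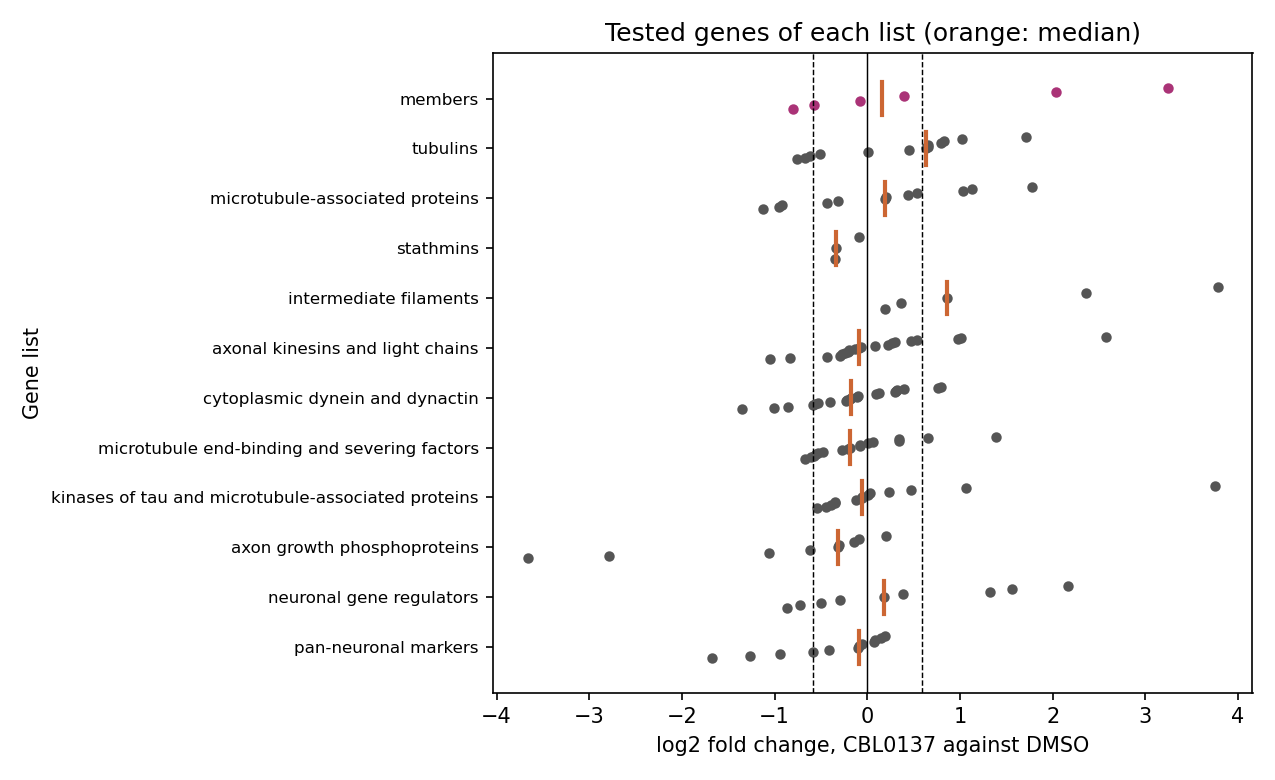
Log2 fold change of CBL0137 against DMSO for each tested gene, with the members in purple on the top line and the lists of other genes in grey below, an orange mark at each median and dashed lines at a fold of 1.5. The stathmins lie below 0, though STMN4 does not with library size alone, in FPKM or without CBL0137 replicate 2, and the intermediate filament genes above it, the other lists have genes on both sides, and GAP43 at -3.66 is the lowest point.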

How the data were processed

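RNA-seq libraries of SKNMC cells given DMSO or CBL0137 (2 per group) were analysed from the deposited table of read counts and FPKM per Ensembl gene. Per the labels' protocols, TRIzol was used for total RNA and the library method was Illumina's standard one. The authors, per the series' design text, used Trim Galore for adapters, aligned reads to hg19 with HISAT2, made the counts with HTSeq 0.11.1, tested with DESeq2 1.26.0 and computed FPKM from read number, gene length and depth. The submitters' processing notes also list mm10, with its use not stated. Neither annotation release nor strand setting is given in the sources.

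The table had 60617 gene entries. A further 6 entries that name no gene, 25.0% to 26.2% of counted reads, stayed out of library sizes and tests. Symbols, positions and exon lengths came from GENCODE v44lift37 (GRCh37), which held 58525 of the identifiers. FPKM and counts were not made from the same assigned reads: 5103 genes had an FPKM above 0 but a count of 0 in each library.

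Counts were tested over all genes in edgeR 4.0.16 (R 4.3.3) by its quasi-likelihood F test (TMM, filterByExpr with a minimum count of 10), with Benjamini-Hochberg adjustment over 17374 genes. CPM values are counts over TMM-scaled library sizes. Each SE of a log2 fold change is its absolute value divided by the square root of F. edgeR does not report it, and it is rough for genes with few reads. FPKM was tested with limma 3.58.1 on log2(FPKM + 1), or with 0.1 in place of 1, a scale that understates the change of low genes, and DESeq2 1.42.0 served as an alternative. Replicates differed by more than sampling noise (chi-square per degree of freedom 3.02 in DMSO and 2.81 in CBL0137), so none were merged. Intervals and floors cover counting error only.

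The members and lists were chosen with earlier results of these data known. Named genes are all members, their closest paralogs, REST, and the 3 non-members of each list with the smallest p, besides genes named because a list had few calls or, like MAPT-AS1 and TROAP-AS1, because they overlap a member. Marker lists for neuronal, glial, mesenchymal, epithelial, immune, endothelial and Ewing sarcoma cells served as checks.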

Additional observations from a re-analysis of the deposited data

How the results depend on the processing

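Calls among the 6 members tested were 2 higher and 1 lower, beside 18.2% and 15.1% of all tested genes. The higher count was 1 with log2(FPKM + 1), where 10.7% of all tested genes were called higher. The lower count was 2 with DESeq2 and 2 with no fold limit, where MAP2 joined MAPT, 0 with a fold above 2, and 1 to 2 with each replicate left out in turn. Over the pooled lists, 115 genes were tested, with 18 called higher and 18 lower. No fold limit gave 38 and 50, where 30.8% and 30.9% of all tested genes were called. A fold above 2 gave 9 and 7, where 11.4% and 7.01% of all tested genes were called. The lower calls numbered 11 with library size alone, 9 with log2(FPKM + 1) and 10 with log2(FPKM + 0.1). In these settings 10.8%, 7.85% and 10.5% of all tested genes were called lower. The difference in family share between groups, in percentage points, was 0.00806 for TUBB3 from counts and 0.584 from FPKM, 0.286 and 0.207 for KIF5C, and 10.7 and 33.6 for PRPH, the last from 6.43 to 14.9 with each replicate left out in turn. Signs that turned were those of MAP1B (0.080 with library size alone, 0.017 with log2(FPKM + 1), 0.018 with log2(FPKM + 0.1)), KIF5B (0.027 with library size alone) and STMN4 (0.072 with library size alone, 0.22 and 0.68 in FPKM, and -0.33 to 0.12 with each replicate left out in turn). For all of these the cause was not tested. With the replicate number as a block, members called were 2 higher and 1 lower and list genes 18 and 18, and over all genes 3129 were higher and 2612 lower, against 3166 and 2632. The numbers share only a label, and the correlation of same-numbered deviations was 0.0196. Depth limits DCX, NEFL, NEFM and STMN2, which lie at or under 3 reads, and PRPH, KIF5C and TUBB3, which rest on 0 to 33 reads per library.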

Other observations

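Of 17 end-binding and severing factors, 2 were called higher and 2 lower (11.8% each, beside 18.2% and 15.1% of all tested genes). MAPRE3, a microtubule plus-end protein found in neurons, was higher, from 10.6 ± 0.686 to 27.7 ± 0.408 CPM. SPAST, the severing enzyme spastin, was lower at -0.67. Both lower calls were lost with library size alone, where 10.8% of all tested genes were called lower. CLASP2, a plus-end stabiliser, had -0.55 (SE 0.06), under the fold limit.

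Of 14 kinases of tau and related proteins, 1 was called higher (TTBK1, near the floor in DMSO) and 0 lower, beside 18.2% higher and 15.1% lower among all tested genes. At an unadjusted p under 0.05, 3 were higher and 6 lower, and DESeq2 called 0 lower. MARK3 had -0.54, GSK3B -0.45 and MAPK9 -0.35, all under the fold limit.

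Of 9 axon growth phosphoproteins tested, 4 were called lower and 0 higher, with 1 higher at an unadjusted p under 0.05 and 0 with DESeq2, and the median was -0.32. The lower calls are 44.4%, beside 15.1% lower and 18.2% higher among all tested genes. GAP43, a growth cone protein, fell from 10.6 and 9.02 CPM in DMSO to 0.592 and 0.948 CPM in CBL0137 (log2 fold change -3.66, SE 0.25, edgeR adjusted p = 2.5e-16). MARCKS, a membrane and actin linker, was lower at -1.06. DPYSL2 (CRMP2), which binds tubulin dimers in growing axons, was lower at -0.62, but at -0.46 with library size alone it was not called. Neither of these had overlapping groups.

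Of 15 regulators of neuronal genes, 9 were tested, and 3 were called higher (2 with DESeq2) and 1 lower, beside 18.2% higher and 15.1% lower among all tested genes. POU4F1, a sensory neuron transcription factor, was higher, at 38.0 and 41.7 CPM in DMSO and 103 and 96.8 CPM in CBL0137 (log2 fold change 1.33, SE 0.07, edgeR adjusted p = 1.6e-20). INSM1 and MYT1, factors of neuroendocrine and neural differentiation, were also higher, at 2.16 and 1.56, from a DMSO mean under 0.5 CPM, where 62.2% of tested genes were called higher. REST, which represses neuronal genes outside neurons, had 123 ± 0.348 CPM in DMSO and 160.4 ± 0.686 CPM in CBL0137, a log2 fold change of 0.38 (SE 0.05) that is under the fold limit. Its corepressors RCOR2 and RCOR1 had -0.87, called lower, and -0.50, not called.

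Of 12 pan-neuronal markers tested, 4 were called lower and 0 higher, with 0 higher at an unadjusted p under 0.05 and 0 with DESeq2. The lower calls are 33.3%, beside 15.1% lower and 18.2% higher among all tested genes. NCAM1, a neural cell adhesion molecule, was lower, from 39.9 ± 0.185 to 16.6 ± 0.861 CPM (log2 fold change -1.26, SE 0.09). SYN1 and SNAP25, proteins of synaptic vesicle release, were lower at -0.94 and -0.59, and ELAVL4, a neuronal RNA-binding protein, at -1.68. PTPRC (CD45), listed as an immune marker, had 162 ± 0.299 CPM in DMSO and 115 ± 11.9 CPM in CBL0137, while the 4 immune markers summed to 162.6 and 162.7 CPM in DMSO, so the other 3 were near 0. Of the other marker lists, 1 glial gene of 8 was tested and called higher (S100B), 6 mesenchymal genes gave 1 higher (COL1A1) and 1 lower (LUM), and 2 endothelial genes gave 1 higher (CDH5). Of 2 immune genes tested, edgeR called 0, with 1 at an unadjusted p under 0.05, and DESeq2 called 0.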
